A study of Mus musculus with 29 samples.

Results

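Acyl-CoA thioesterases (Acot) were followed in the livers of mice on 4 high-fat diets. The set was defined by name as every non-control array probe annotated to Acot1, Acot2, Acot3, Acot4, Acot5, Acot7, Acot8, Acot9 or Acot12. It held 9 of the 31791 gene names on the array, read by 12 of its 39429 non-control probes. All 12 were tested, with 23921 probes tested in all, and the RefSeq accession printed with each probe led to the same symbol for all 12. The mice were male C57BL/6N, 3 months old and chow-fed before a 7-week diet. One group of 7 received a corn oil-based high-fat diet (cHF) and served as control. In the cHF+PC group (n = 8) about 7% of the dietary lipids was exchanged for a concentrate of omega-3 phospholipids, rich in phosphatidylcholine and carrying EPA and DHA. The cHF+R group (n = 6) received cHF with a low dose of rosiglitazone, a PPAR-gamma agonist used against diabetes. The cHF+PC+R group (n = 8) received both additions. All mice thus shared the corn oil high-fat background, and no group remained on chow.

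Acyl-CoA thioesterases hydrolyse a fatty acyl-CoA to the free fatty acid and coenzyme A, the reverse of the activation that acyl-CoA synthetases carry out. Separate members work in the cytosol, in mitochondria and in peroxisomes, where they free CoA and release chain-shortened acids from beta-oxidation. In rodent liver several of them are known targets of PPAR-alpha, the nuclear receptor that senses fatty acids and fibrates, and rise with fasting. EPA and DHA are themselves PPAR-alpha ligands.

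Acot1 to Acot5 share a position that the definition did not use. Their 7 probes lay side by side on chromosome 12 (mm9) between positions 85334071 and 85416951, a span of 82.9 kb, in the order Acot2, Acot1, Acot4, Acot3 and Acot5. The remaining probes lay on chromosome 4 (Acot7), chromosome 2 (Acot8), chromosome X (Acot9) and chromosome 13 (Acot12). The DNA just upstream of the annotated starts is shown for Acot1 to Acot4 and for Acot12, whose probes rose in at least 1 comparison. Acot5 also had a probe that rose. Its window overlapped the annotated gene and held no match to the direct repeat searched for below, so it is not shown. The letters are from RefSeq (GRCm38.p6), which held a start for all 9 genes. The 250 bases before the start are given whole where they lie outside the annotated gene. Capitals mark the letters CCAAT on either strand, the core of a common proximal promoter element.

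Acot1 (chr12:84009252-84009501, plus strand): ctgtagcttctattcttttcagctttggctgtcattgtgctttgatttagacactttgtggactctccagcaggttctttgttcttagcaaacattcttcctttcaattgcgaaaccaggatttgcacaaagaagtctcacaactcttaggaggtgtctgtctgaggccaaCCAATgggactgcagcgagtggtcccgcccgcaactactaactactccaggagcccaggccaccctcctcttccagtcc

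Acot2 (chr12:83987611-83987860, plus strand): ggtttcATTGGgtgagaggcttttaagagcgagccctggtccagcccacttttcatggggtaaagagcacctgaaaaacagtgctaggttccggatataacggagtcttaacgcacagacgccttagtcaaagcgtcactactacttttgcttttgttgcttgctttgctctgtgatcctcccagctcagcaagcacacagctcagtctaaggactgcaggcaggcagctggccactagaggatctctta

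Acot3 (chr12:84051894-84052143, plus strand): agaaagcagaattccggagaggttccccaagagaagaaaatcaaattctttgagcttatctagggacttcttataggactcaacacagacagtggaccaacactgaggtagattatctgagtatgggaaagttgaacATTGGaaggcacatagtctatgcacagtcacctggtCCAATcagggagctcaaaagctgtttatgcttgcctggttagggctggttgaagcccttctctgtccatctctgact

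PPAR-alpha binds as a heterodimer with RXR to direct repeats spaced by a single base. All windows were searched on both strands for the letters AGGTCANAGGTCA with up to 2 mismatches among the 12 fixed letters. Among 32851 upstream windows of 250 bases, 3.24% held such a match, and of the 9 thioesterase genes Acot4 and Acot12 did. The Acot4 match had 2 mismatches and ended directly at the annotated start. The Acot12 match had 1 mismatch and ended 97 bases before the start. Both lay on the reverse strand, and at both genes another annotated start lies further upstream, so 30 bases around each match are shown, with the match in capitals.

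Acot4 (chr12:84038349-84038378, plus strand): ggctcagccccgaagcaTGACCTTTGGCCG

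Acot12 (chr13:91741403-91741432, plus strand): taggacccTGACCTCTCACCTcctaagcac

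The exact half-site AGGTCA, which both of those matches contain, was also present upstream of Acot5 and in 14% of all windows. The CCAAT letters, a motif chosen after the sequences had been read, were present upstream of 7 of the 9 genes, Acot7 and Acot12 being without them, and in 33.8% of all windows. These are matches of letters in 1 window per gene, not measured binding.

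Each array compared 1 mouse liver, labelled with Cy5, with a Cy3-labelled pool of the samples. The values below are log2 ratios to that pool, so they compare groups for a probe and not probes with each other. Between 55.0% and 62.5% of the spots were well above background on 28 arrays. The cHF replicate 4 array stood apart at 80.8%, and results that rest on the control group are therefore also given without it where its removal changed a call or a count. For the calls of Acot1, Acot5 probe 1 and Acot3 probe 2 it changed none: Acot1 stood at 0.76, 1.07 and 1.32 with PC, R and both without it, Acot5 probe 1 at 0.62, 0.78 and 0.99, and Acot3 probe 2 at 1.48 with both. All 11 hepatocyte marker genes were detected and tested. Of 7 adipocyte markers 4 were tested, while Adipoq, Plin1 and Lep were well above background on 2, 2 and 0 arrays. The mean log2 ratio of those 4 ran from -1.79 to -0.93 in cHF, from -0.66 to 2.15 in cHF+R, from -2.19 to -1.23 in cHF+PC and from -1.80 to 1.57 in cHF+PC+R. In cHF+R against cHF, 3 of the 4 rose (Cfd by 4.51, Fabp4 by 1.27 and Retn by 0.65), and their part in the cHF+R results below was not tested. That count was 2 without cHF replicate 4 and 1 without cHF+R replicate 1 or 3. In cHF+PC and cHF+PC+R against cHF none of the 4 passed. Kupffer cell, cholangiocyte and lymphocyte markers passed in none of the comparisons with cHF, while Lrat, a stellate cell marker, fell by 0.49 with PC and 0.34 with both. Cdh5, an endothelial marker, fell by 0.16 with PC. That call was lost without cHF replicates 1, 2, 3, 5 or 6 or cHF+R replicate 5. It was also lost without cHF+PC replicates 2, 3, 4, 5, 6 or 8, or cHF+PC+R replicates 1 or 5. Of the 11 hepatocyte markers 1 fell with PC, 1 fell with R, and 1 rose and 2 fell with both. The fall with R was lost without cHF replicate 4, which changed no other marker count against cHF beside that of the adipocyte markers. That fall was also lost without cHF replicates 1, 2 or 7 or cHF+R replicates 1, 3 or 5.

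Against cHF, some of the thioesterase probes rose with each addition to the diet and none fell. With the phospholipids alone 3 of 12 probes rose, those of Acot1 and Acot12 and 1 of 2 for Acot5 (limma on all tested probes, Benjamini-Hochberg adjusted p below 0.05). Of all tested probes 3.85% changed in that comparison and 1.86% rose. With rosiglitazone alone 2 of 12 rose, Acot1 and the same Acot5 probe, where 2.97% of all probes changed and 1.94% rose. With both additions 7 of 12 rose, covering Acot1, Acot2, both Acot3 probes, Acot4, Acot5 probe 1 and Acot12, where 9.04% of all probes changed and 4.53% rose. The median log2 change over the 12 probes was 0.23, 0.32 and 0.40 in these comparisons, against 0.002, 0.01 and 0.01 over all tested probes. Without cHF replicate 4 the counts were 4, 4 and 7. All comparisons with cHF use the same 7 control mice. In bulk liver, a lower number of cells of a type and less RNA per cell cannot be told apart.

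**Figure D1:**
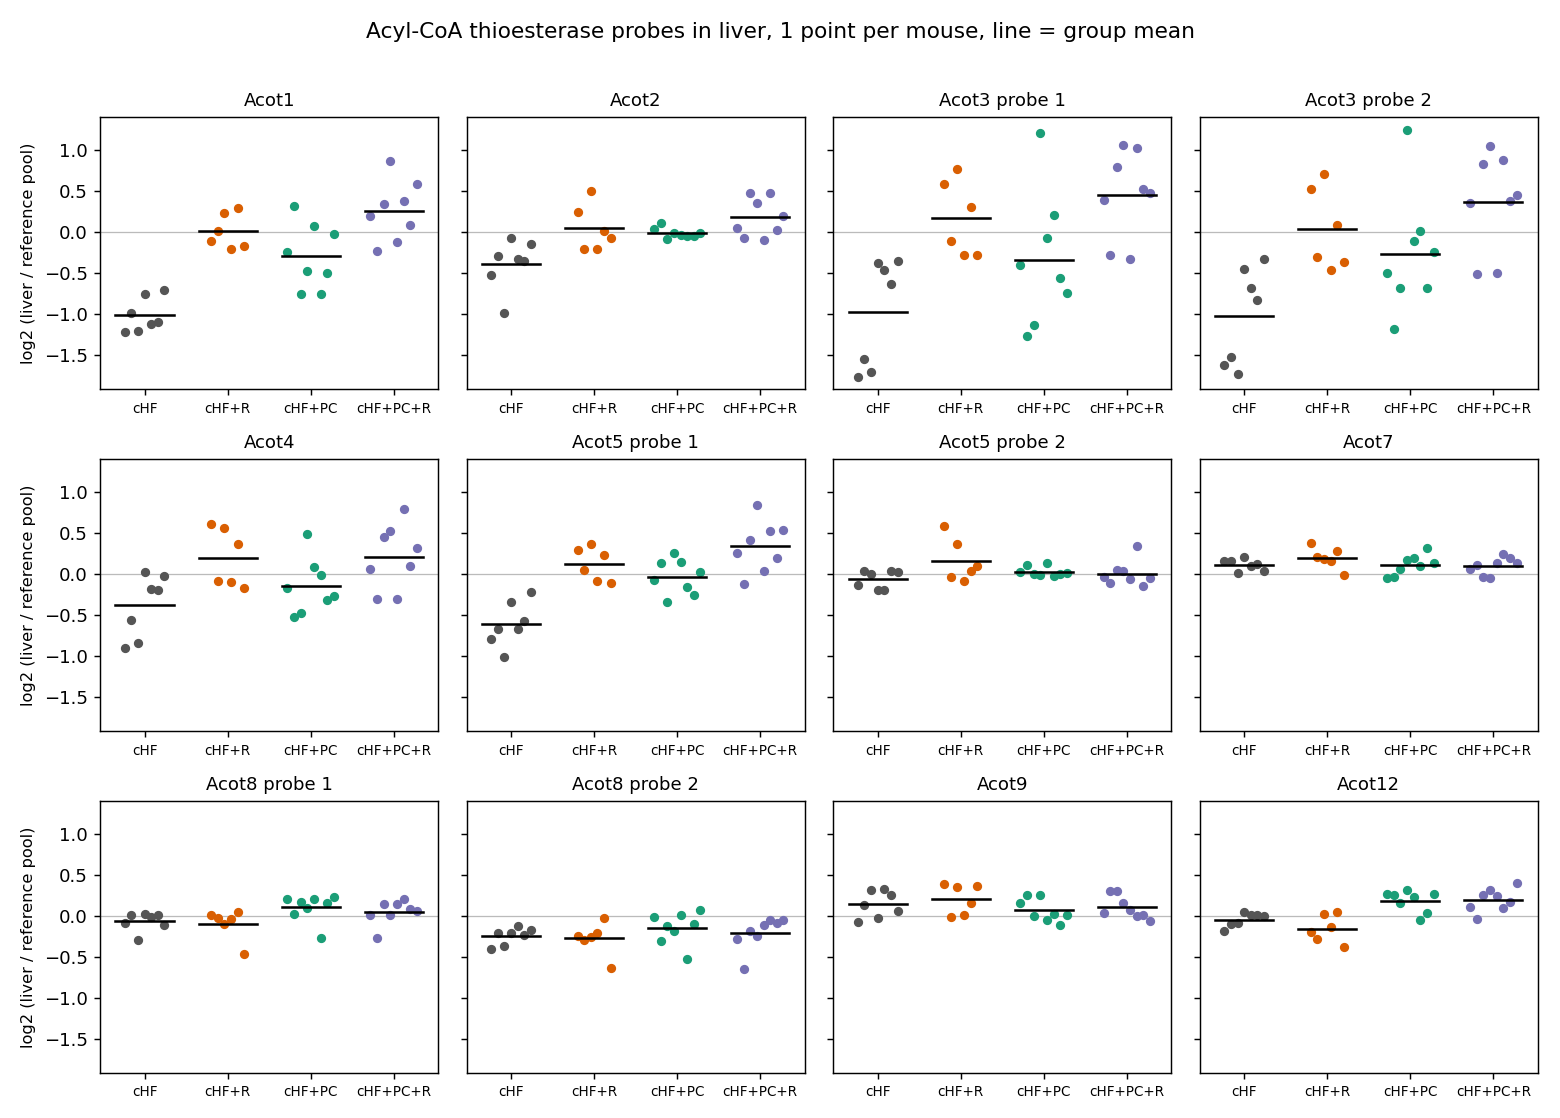
Log2 ratio of liver to reference pool (vertical axis) for each of the 12 thioesterase probes in the 4 diet groups, with 1 point per mouse and a line at the group mean. For Acot1 all 6 cHF+R and all 8 cHF+PC+R mice lie above the highest cHF mouse at -0.71, while Acot7, Acot8 and Acot9 show overlapping groups.

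Acot1 is the cytosolic thioesterase for long-chain acyl-CoA. In cHF its log2 ratio ran from -1.22 to -0.71 with a median of -1.10. The cHF+PC mice ran from -0.76 to 0.31 (median -0.36), the cHF+R mice from -0.21 to 0.29 (median -0.05), and the cHF+PC+R mice from -0.24 to 0.86 (median 0.26). No cHF+R or cHF+PC+R mouse overlapped the controls, and 6 of 8 cHF+PC mice lay above the highest control. Acot1 rose by 0.72 ± 0.15 (log2, SE) with PC (adjusted p = 0.00694), by 1.02 ± 0.16 with R (adjusted p = 0.000293) and by 1.27 ± 0.15 with both (adjusted p = 3.68e-06), or 1.64-fold, 2.03-fold and 2.42-fold. On the slides, each of which carried several groups, the difference from cHF was positive on 7 of 7, 5 of 5 and 7 of 7 slides that held both groups. The calls with PC and with R were lost when the arrays were only centred on their median (adjusted p = 0.99998 and 0.0543), and all 3 calls were lost with scaling between arrays (adjusted p = 0.77, 0.198 and 0.106). Under median centring the changes with PC and R were 0.75 and 1.35. Under scaling the change with PC was 0.24, while those with R and with both were 1.13 and 1.14.

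Acot2 is the mitochondrial counterpart of Acot1 and acts on long-chain acyl-CoA in the matrix. Its log2 ratio ran from -0.99 to -0.07 in cHF (median -0.33), from -0.09 to 0.11 in cHF+PC (median -0.03), from -0.21 to 0.50 in cHF+R (median -0.04) and from -0.10 to 0.48 in cHF+PC+R (median 0.12). The cHF+PC mice stood closest together, with an SD of 0.062 against 0.30 in cHF. With both additions Acot2 rose by 0.56 ± 0.11 (adjusted p = 0.00209), with 6 of 8 mice above the highest control. The differences with PC (0.37 ± 0.11, adjusted p = 0.0622) and with R (0.43 ± 0.12, adjusted p = 0.0503) missed the threshold. Without cHF replicate 4 they were 0.42 (adjusted p = 0.0428) and 0.48 (adjusted p = 0.0322). The difference with PC also passed without cHF+R replicate 3, and that with R without cHF replicate 7, cHF+R replicates 2, 4 or 6, or cHF+PC+R replicates 2, 3, 5 or 6. Of the 14 other settings, 5 called the change with PC and 9 that with R. The scanner software's processed signals gave the largest changes, 0.95 with PC, 1.15 with R and 1.35 with both, and all 14 settings called the change with both. The Acot2 probe was dim, with a mean log2 Cy5 of 7.39. It was well above background on 28 of 29 arrays (6 of 7 in cHF). The part of this low signal in the size of the changes and in the SD was not tested. Acot9, another mitochondrial member, did not pass the test in any comparison. Its levels ran from -0.08 to 0.33 in cHF and from -0.06 to 0.30 in cHF+PC+R, and its change with both additions was -0.04, with a 95% interval from -0.20 to 0.12.

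**Figure D2:**
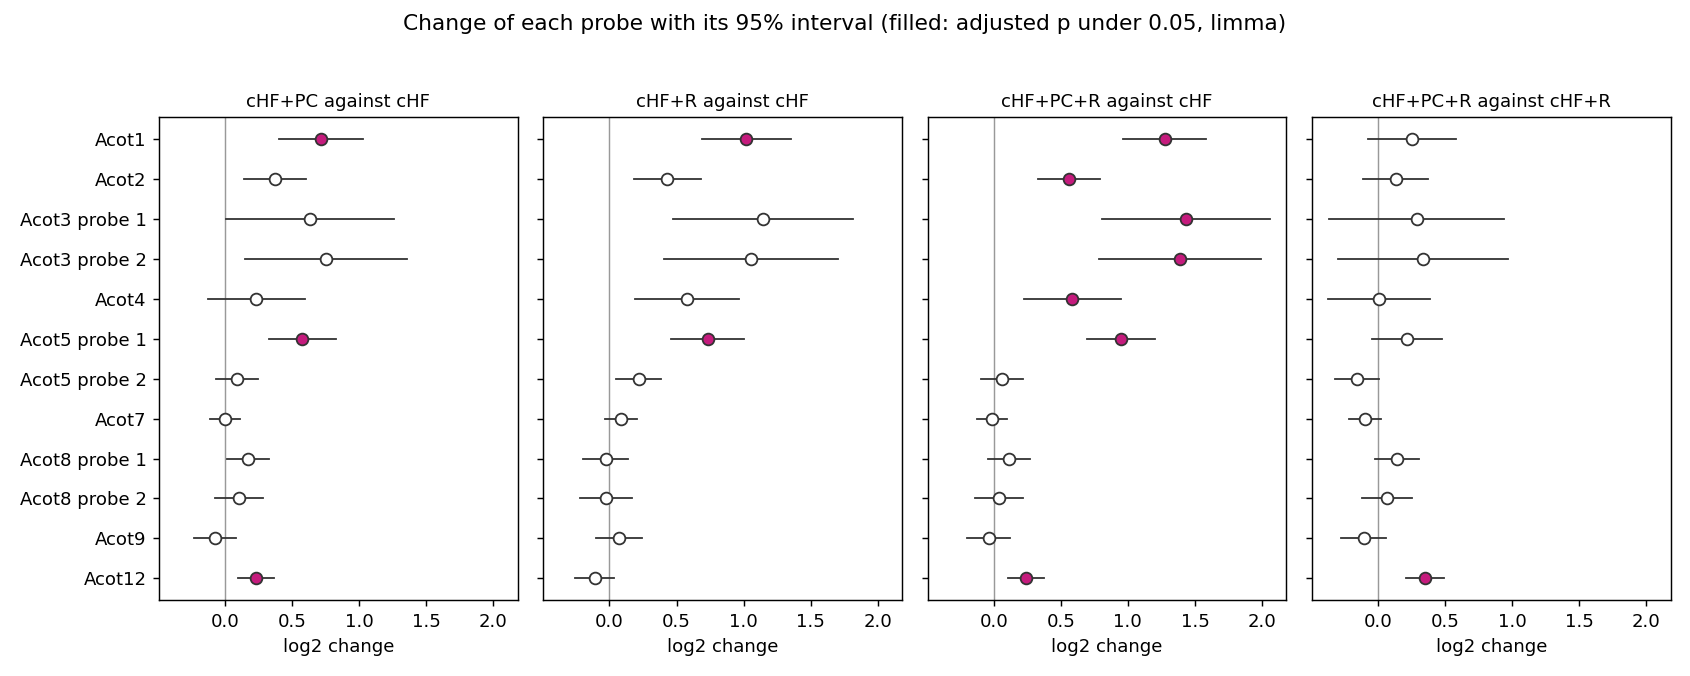
Log2 change with its 95% interval (horizontal axis) for the 12 probes in 4 comparisons, filled where the adjusted p was below 0.05 (limma). With both additions 7 points are filled, from Acot12 at 0.24 to Acot3 probe 1 at 1.43, and against cHF+R only Acot12 is filled.

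The peroxisomal members are Acot3, Acot4, Acot5 and Acot8. Acot3, which acts on long-chain acyl-CoA, gave the largest change from cHF among the 12 probes. In cHF probe 1 ran from -1.77 to -0.36 with a median of -0.63. The cHF+PC mice ran from -1.27 to 1.20 (median -0.48), the cHF+R mice from -0.28 to 0.76 (median 0.09) and the cHF+PC+R mice from -0.34 to 1.06 (median 0.49). No mouse of cHF+R or cHF+PC+R overlapped the controls, whereas only 3 of 8 cHF+PC mice lay above the highest control. Probe 2 did overlap, with 4 of 6 cHF+R mice and 6 of 8 cHF+PC+R mice above the highest control and a positive difference on 4 of 5 and 6 of 7 slides. With both additions Acot3 rose by 1.43 ± 0.31 at probe 1 (adjusted p = 0.00327) and by 1.39 ± 0.30 at probe 2 (adjusted p = 0.0032), or 2.70-fold and 2.62-fold. With R the differences were 1.14 ± 0.33 (adjusted p = 0.0527) and 1.05 ± 0.32 (adjusted p = 0.0687), and with PC 0.63 ± 0.31 and 0.75 ± 0.30 (adjusted p = 0.268 and 0.158). Without cHF replicate 4 the difference with R at probe 1 was 1.24 (adjusted p = 0.0459), and it also passed without cHF replicate 7, cHF+R replicate 6, cHF+PC replicates 2 or 4, or cHF+PC+R replicates 2 or 5. At probe 2 it passed without cHF replicate 7 (1.17, adjusted p = 0.0465) and without cHF+PC replicate 4 (adjusted p = 0.0289). Scaling between arrays ended the call of probe 1 with both additions (1.17, adjusted p = 0.415).

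The control mice were not evenly spread for Acot3. Replicates 1, 2 and 3 of cHF gave -1.77, -1.55 and -1.71 at probe 1, and replicates 4 to 7 gave -0.38, -0.47, -0.63 and -0.36. The first 3 were on slides 1 to 3 and the others on slides 5 to 8. The difference between cHF+PC+R and cHF was positive on all 7 shared slides but ran from 0.05 to 2.50, being largest on slide 3 and smallest on slide 5. Acot1 did not divide the same mice, since its cHF replicates 4 and 7 were the 2 highest at -0.75 and -0.71 and replicates 5 and 6 lay at -1.12 and -1.10.

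Acot4, a peroxisomal thioesterase for succinyl-CoA and other dicarboxylic acyl-CoA, ran from -0.91 to 0.02 in cHF and from -0.31 to 0.79 in cHF+PC+R. It rose by 0.58 ± 0.18 with both additions (adjusted p = 0.0356), 6 of 8 mice lying above the highest control. With R alone the difference was of the same size, 0.58 ± 0.19, with an adjusted p of 0.104. The call with both was lost when any of cHF replicates 1, 2 or 3 or cHF+PC+R replicates 3, 4, 6 or 8 was left out, with adjusted p between 0.0529 and 0.0909. It was also lost under 6 of the other settings tried, with adjusted p between 0.0547 in the deposited value table and 0.562 with scaling between arrays. Replicates 1, 2 and 3 of cHF were also the lowest controls for Acot3 probe 1, with which Acot4 varied within groups (r = 0.94).

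Acot5, a peroxisomal thioesterase for medium-chain acyl-CoA, gave different answers at its 2 probes. Probe 1 ran from -1.02 to -0.22 in cHF (median -0.67), from -0.35 to 0.26 in cHF+PC (median -0.03), from -0.11 to 0.36 in cHF+R (median 0.13) and from -0.12 to 0.84 in cHF+PC+R (median 0.33). Both rosiglitazone groups lay wholly above the controls. It rose by 0.58 ± 0.12 with PC (adjusted p = 0.00731), by 0.73 ± 0.13 with R (adjusted p = 0.00114) and by 0.95 ± 0.12 with both (adjusted p = 1.23e-05). The call with PC was lost when arrays were only centred (0.59, adjusted p = 0.819), when their spread was also scaled (0.37, adjusted p = 0.207) and with Cy5 alone (0.43, adjusted p = 0.177). Probe 2, which starts at position 85416893 on chromosome 12 (mm9) against 85416634 for probe 1, ran from -0.20 to 0.04 in cHF and from -0.15 to 0.34 in cHF+PC+R. Its differences from cHF were 0.09, 0.22 and 0.06 and none passed the test. The 95% interval with both additions ended at 0.22 for probe 2 and began at 0.69 for probe 1. The probes also differed in signal. Mean log2 Cy5 was 9.96 for probe 1 and 7.33 for probe 2, the lowest of the 12 probes. The part of this low signal in the smaller differences at probe 2 was not tested. Which transcripts each probe detects was not tested, and the cluster's genes are close paralogs, so signal shared between them cannot be told apart here.

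Acot8, the peroxisomal member with the broadest range of substrates, was measured by 2 probes, neither of which passed in any comparison. Probe 1 ran from -0.30 to 0.02 in cHF and from -0.27 to 0.23 in cHF+PC, where 7 of 8 mice lay above the highest control and the difference was 0.17 ± 0.08 (adjusted p = 0.236). With array weights that difference was 0.21 and passed (adjusted p = 0.0258). Probe 2 ran from -0.41 to -0.12 in cHF and from -0.53 to 0.07 in cHF+PC, a difference of 0.10 ± 0.09 (adjusted p = 0.589).

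Acot12, the cytosolic acetyl-CoA hydrolase of liver, was higher in the groups that received the phospholipids. Its log2 ratio ran from -0.19 to 0.04 in cHF, from -0.38 to 0.04 in cHF+R, from -0.06 to 0.31 in cHF+PC and from -0.04 to 0.40 in cHF+PC+R. Medians were 0.24 and 0.20 in the groups with PC and -0.01 and -0.17 in those without. Acot12 rose by 0.23 ± 0.07 with PC (adjusted p = 0.0457) and by 0.24 ± 0.07 with both (adjusted p = 0.0218). With R alone the difference was -0.11, with a 95% interval from -0.25 to 0.04. Between cHF+PC+R and cHF+R it rose by 0.35 ± 0.07 (adjusted p = 0.00216), with 7 of 8 mice above the highest cHF+R mouse and a positive difference on 6 of 6 slides. The call with PC lay at the threshold and was lost in 16 of 29 fits that left out 1 array, named in the closing section, with adjusted p up to 0.105. With Cy5 alone and with no filter the call with PC was also lost (adjusted p = 0.0849 and 0.0653). Median centring ended all 3 calls of Acot12 (adjusted p = 0.99998, 0.925 and 0.982), as did scaling between arrays (adjusted p = 0.198, 0.774 and 0.542). The changes with PC, with both and between cHF+PC+R and cHF+R were then 0.24, 0.36 and 0.19 with median centring and 0.39, 0.18 and 0.23 with scaling.

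Acot7, a cytosolic thioesterase best known from brain, did not pass in any comparison. It ran from 0.01 to 0.20 in cHF and from -0.06 to 0.24 in cHF+PC+R. Its differences from cHF lay between -0.01 and 0.09, and the 95% intervals stayed between -0.13 and 0.21.

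Adding phospholipids on top of rosiglitazone raised 1 of the 12 probes, Acot12, where 6.72% of all tested probes changed and 3.13% rose. In that comparison Acot1 differed by 0.25 ± 0.16, Acot5 probe 1 by 0.22 ± 0.13 and Acot3 probe 1 by 0.29 ± 0.32, none past the threshold. In the same comparison 2 of 4 adipocyte markers fell (Cfd with a change of -3.01 and Fabp4 of -1.15, list median -1.19), 2 of 11 hepatocyte markers rose (list median 0.21) and the stellate marker Lrat fell by 0.58, and their part in the change of Acot12 was not tested. The adipocyte count ran from 0 to 4 and the hepatocyte count from 0 to 3 when 1 array was left out. Adding rosiglitazone on top of the phospholipids called 0 of 12 probes with limma (all probes 0.113%). At an unadjusted p below 0.05, 5 of 12 were higher, where 8.37% of all probes passed that level in either direction. The smallest adjusted p was 0.174, for Acot1 at 0.56 ± 0.15, followed by Acot5 probe 1 at 0.37 ± 0.12. The interaction, the effect of PC with R minus its effect without R, called 0 of 12 probes and 0% of all probes. At an unadjusted p below 0.05 it held 2 of 12 members and 6.68% of all probes. Its estimate was -0.46 for Acot1 (95% interval -0.91 to -0.01, unadjusted p = 0.0444, adjusted p = 0.729) and -0.25 for Acot5 probe 2 (unadjusted p = 0.0358, adjusted p = 0.72). The estimate was below 0 for 11 of the 12 probes, with a median of -0.23 against -0.009 over all tested probes. The share of all probes below 0 was not computed. Several of the 12 read the same gene or varied together within groups, so they are not independent. The count of calls without cHF replicate 4 was 1, 0 and 0 in these comparisons.

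By group mean, Acot1, Acot2, both Acot3 probes, Acot4 and Acot5 probe 1 had the same order, from cHF through cHF+PC and cHF+R to cHF+PC+R. Neighbouring groups in that order overlapped at each of these 6 probes. The 7 probes of the chromosome 12 cluster had a median change of 0.58, 0.73 and 0.95 with PC, R and both, and 2, 2 and 6 of them rose. The 5 probes elsewhere had medians of 0.10, -0.03 and 0.04, and Acot12 alone rose among them. Acot6, the next gene of the cluster and no member of the set, differed from cHF by 0.09, 0.26 and 0.23 and passed in none of the comparisons.

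Mice of the same diet also varied together in some pairs of these probes. Deviations from the group means were compared over 29 arrays for the 66 pairs of probes, with 100000 permutations within groups and adjustment over the 66 pairs. The arrays share their reference pool. For the 2 Acot3 probes r was 0.97 and rho 0.97, and for Acot3 probe 1 with Acot4 r was 0.94 and rho 0.95. For both pairs the permutation p was 1e-05 for r and rho, the smallest 100000 permutations can give (adjusted p = 8.25e-05 for r and 0.00011 for rho). Without the 2 mice farthest from the median r was 0.95 for each of these pairs, and 0.78 for the next one. Acot1 went with Acot5 probe 1 (r = 0.80, rho = 0.81, permutation p = 1e-05 for each, adjusted p = 8.25e-05 and 0.00011). Acot1 with Acot3 probe 1 had a within-group r of 0.25 and rho of 0.38 (permutation p = 0.249 and 0.0538, adjusted p = 0.342 and 0.118). After slide means were also removed, r was 0.93 for Acot3 probe 1 with Acot4 and 0.84 for Acot1 with Acot5 probe 1. In all, 17 of the 66 pairs had an adjusted permutation p of r below 0.05. They include the 2 probes of Acot3 and the 2 probes of Acot8. Others join genes of the chromosome 12 cluster, which are close paralogs, Acot1 with Acot5 probe 1 and Acot3 with Acot4 among them. Which transcripts each probe detects was not tested, so signal shared between their probes cannot be told apart from separate genes varying together. The share among pairs of other probes on the array was not computed, so the count cannot be called particular to the thioesterases.

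**Figure D3:**
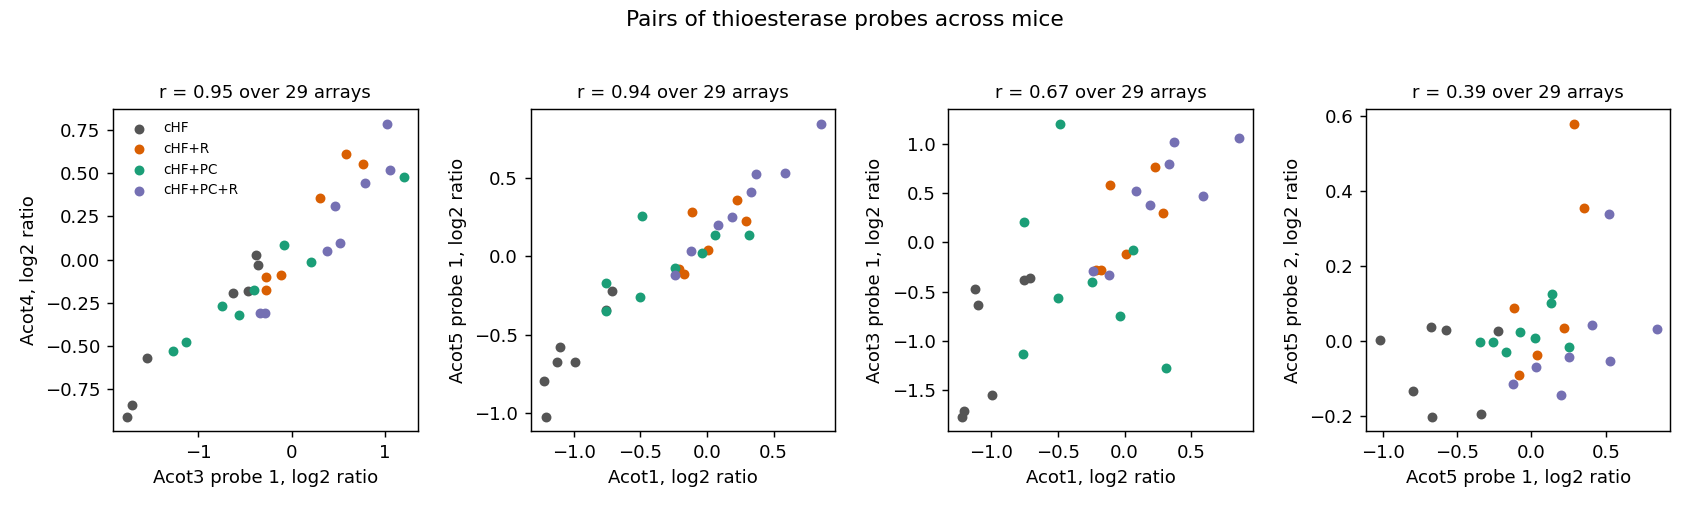
Log2 ratios of 4 pairs of probes, 1 point per mouse, coloured by diet, with Pearson's r over all 29 arrays, group differences included, above each panel. Acot3 probe 1 and Acot4 lie along a line (0.95), Acot1 and Acot3 probe 1 less closely (0.67), and the 2 Acot5 probes least (0.39).

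The genes outside the set whose log2 ratios were most like Acot3 probe 1 over the 29 arrays were Gm2708 (r = 0.93, rho = 0.85), Slc16a5 (r = 0.85, rho = 0.87), D630004K10Rik (r = 0.84, rho = 0.82), 4831426I19Rik (r = 0.84, rho = 0.85) and Agpat6, now Gpat4 (r = 0.81, rho = 0.83). They were picked as the highest of all genes, so no test is given. Within groups r was 0.90, 0.80, 0.72, 0.79 and 0.63. Gm2708 had group means of -0.28 in cHF, -0.0001 in cHF+PC, 0.11 in cHF+R and 0.34 in cHF+PC+R.

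Other genes of acyl-CoA handling were read from 6 lists, with 1 probe per gene. The list of other thioesterases and related acyltransferases held 10 tested genes, none of which rose. Acnat2, a peroxisomal acyltransferase, fell by 1.24 with PC (adjusted p = 0.0285), and Acot11, a thioesterase first known from brown fat, fell by 0.99 with both additions (adjusted p = 0.00584). With R none of the 10 passed. Leaving out cHF replicate 4 ended the call of the list with PC and kept 1 call with both. The call with PC was also lost without cHF replicates 5, 6 or 7 or cHF+PC replicates 2, 4 or 6. The list of PPAR-alpha target anchors had 4 of 16 genes higher in each comparison with cHF. Cyp4a10, Cyp4a14 and Cyp4a31, omega-hydroxylases of fatty acids, were the 3 of smallest adjusted p each time. Cyp4a10 rose by 1.77 with PC, 1.15 with R and 2.16 with both, and Cyp4a14 by 2.69, 2.39 and 3.48. The median change of the 16 anchors was far smaller, 0.11 with PC, 0.25 with R and 0.11 with both. Without cHF replicate 4 these counts were 3, 2 and 3 of 15.

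Peroxisomal beta-oxidation had 3 of 21 genes higher with PC, 5 higher and 1 lower with R, and 8 higher with both. Ehhadh, the bifunctional hydratase and dehydrogenase of peroxisomes, rose by 1.11, 0.97 and 1.41 (adjusted p = 4.12e-07, 1.7e-05 and 2.41e-09). The peroxisomal thiolases followed, Acaa1b with 1.18 under R and 0.99 under both, and Acaa1a with 0.50 under both. Eci2 and Decr2, auxiliary enzymes for unsaturated acids, rose by 0.40 and 0.28 with PC, and Pecr, an enoyl-CoA reductase, fell by 0.34 with R. The median change of the list was 0.13, 0.10 and 0.12, beside 0.23, 0.32 and 0.40 for the 12 thioesterase probes. Without cHF replicate 4 the counts were 3, 5 with 1 lower, and 8 of 20.

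Mitochondrial beta-oxidation had 2, 1 and 2 of 16 genes higher, among them Acadm, the medium-chain acyl-CoA dehydrogenase, by 0.65 with R and 0.51 with both, and Acadl by 0.18 with PC. Among 17 acyl-CoA synthetases and binding proteins 1 rose and 2 fell with PC, none passed with R, and 2 rose and 3 fell with both. Acss2, which makes acetyl-CoA from acetate, fell by 0.81 with PC and by 0.87 with both. Without cHF replicate 4 these counts were 1 and 1 with PC and 0 and 1 with both, and the mitochondrial count with PC was 1. Over all arrays left out 1 at a time, the synthetase list with both additions ran from 0 rises without cHF replicates 4 or 6 to 5 without cHF+PC+R replicate 2, and its falls from 1 to 3. Of 16 genes of CoA synthesis and breakdown, none passed with PC. Vnn1, the pantetheinase, rose by 1.07 with R and 0.84 with both, and Nudt7, which degrades CoA in peroxisomes, fell by 0.45 with both. That fall was lost without cHF replicates 1, 2, 5 or 6, or cHF+R replicates 2, 3, 5 or 6. It was lost as well without cHF+PC replicates 1, 2, 6, 7 or 8, or cHF+PC+R replicates 2, 3, 4, 5 or 8. The rise of Vnn1 with both was lost without cHF replicates 1 or 3 or cHF+PC+R replicates 3, 4 or 6. Its rise with R was lost without cHF replicate 1 or cHF+R replicates 1 or 3. For cHF+PC+R against cHF+R, 4 of 21 peroxisomal and 4 of 16 mitochondrial genes were higher, among them Pecr (0.32), Phyh (0.31), Acadl (0.24) and Cpt1a (0.33). Of 17 acyl-CoA synthetases and binding proteins 4 rose and 3 fell there, and of 16 PPAR-alpha anchors 2 rose and 1 fell. The mitochondrial count was 2 without cHF+R replicate 1, and the rises among the synthetases were 2 without cHF+R replicates 1, 4 or 5 or cHF+PC+R replicates 1, 5 or 7. With median centring or scaling between arrays no gene of these 6 lists was called in that comparison.

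**Figure D4:**
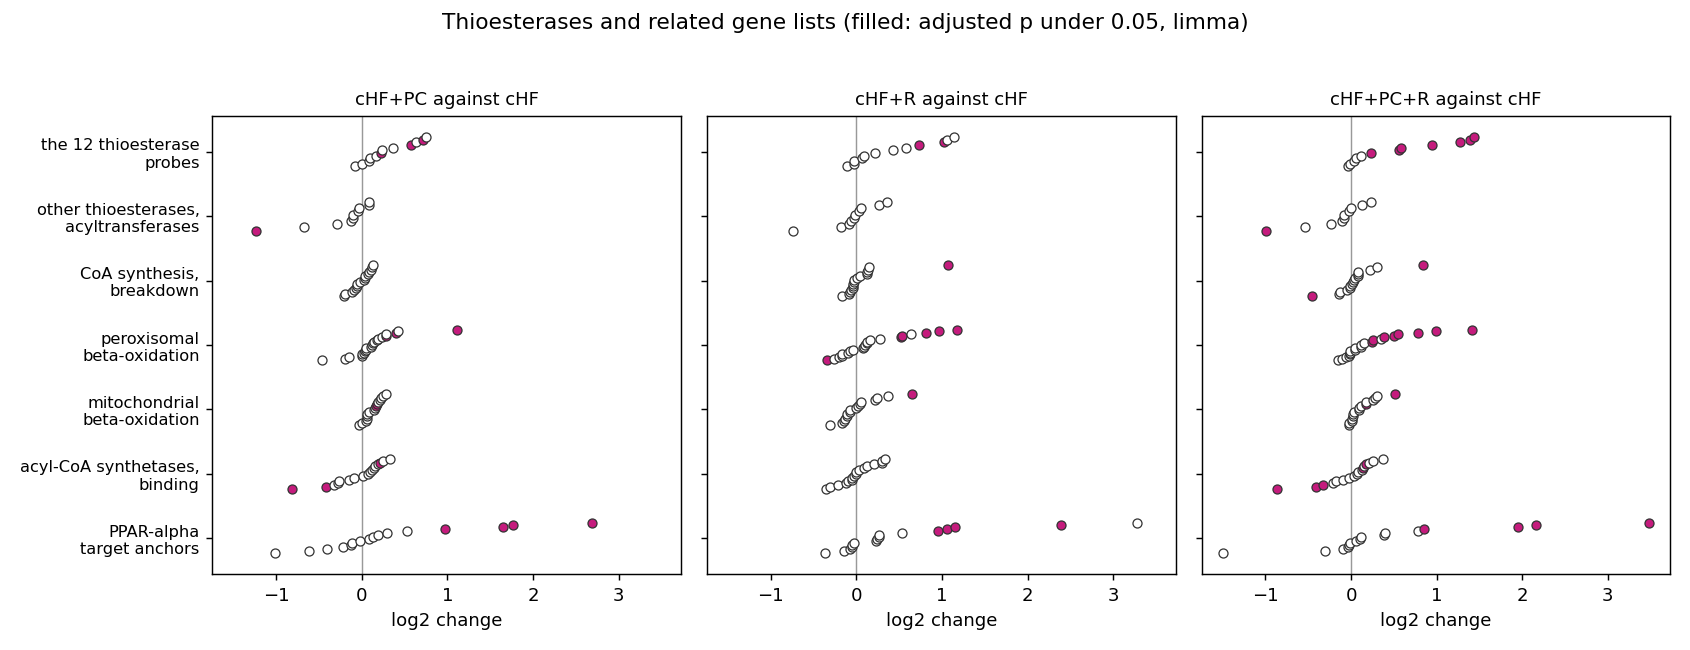
Log2 change from cHF (horizontal axis) of the 12 thioesterase probes and of each tested gene in the 6 lists, 1 point per probe, filled where the adjusted p was below 0.05 (limma). Filled points lie mostly to the right of 0 for the thioesterases, peroxisomal beta-oxidation and the PPAR-alpha anchors, with Cyp4a14 farthest at 3.48 with both additions.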

How the data were processed

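Liver RNA of 29 mice (cHF 7, cHF+R 6, cHF+PC 8, cHF+PC+R 8) was read on 2-colour Agilent arrays with no dye swap. Per the labels and the design text, the authors processed them with Agilent Feature Extraction 10.5.1.1 and left out 2 arrays before normalization. The deposited spot intensities are linear; the deposited value table holds log2 values whose normalization was not given in the sources used here (column median 9.03, lowest correlation with an array's own log2 Cy5 0.99). Flags deposited with the spots marked outliers and signals well above background. Per the file headers the probe positions are mm9.

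Intensities were background-corrected (normexp, offset 50) and loess-normalized within arrays in limma 3.58.1 (R 4.3.3), without control and outlier spots. A probe had to have a value on 20 arrays or more and a Cy5 signal well above background on 6 or more, and was then tested with lmFit and eBayes on 4 group means, Benjamini-Hochberg over 23921 probes, threshold 0.05. The number of arrays limits the precision. Code was tested on simulated data. The set and lists were chosen with earlier results of these data known. Named are all set probes, up to 3 genes per list and comparison by smallest adjusted p, and the 5 genes most like the set's most changed probe. Alternatives were other background corrections, normalizations, filters, blocks and weights, and each array left out.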

Additional observations from a re-analysis of the deposited data

Results flagged for a closer look

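For each of the 12 probes in each of the 4 groups, 48 sets of values in all, the highest and lowest mouse were compared with the nearest other mouse by Dixon's test, in which chance marks about 1 in 20 sets. The test marked 6 values, 5 of them in the 2 Acot8 probes and 2 of them from cHF+PC+R replicate 2. For Acot8 probe 1 the lowest mouse stood apart in every group: cHF replicate 3 at -0.30 (next -0.11), cHF+R replicate 6 at -0.47 (next -0.10), cHF+PC replicate 6 at -0.27 (next 0.02) and cHF+PC+R replicate 2 at -0.27 (next 0.01). For Acot8 probe 2 cHF+PC+R replicate 2 stood apart at -0.65 (next -0.28). For Acot5 probe 2 cHF+PC+R replicate 6 was the highest of its group at 0.34 (next 0.04).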

How the results depend on the processing

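Over the 14 other settings the called values of single probes kept their direction in 181 of 181 cases and stayed past the threshold in 158. With other filters, 1 probe per gene, only the compared groups or the intensity trend, the estimates were those of the main fit. The direction could not change in those settings, so their cases do not test it. Of 797 values not called, 19 passed elsewhere. With median centring the counts of called thioesterase probes were 0 with PC, 1 with R and 0 for cHF+PC+R against cHF+R, where calls over all 23921 probes went from 921, 710 and 1608 to 12, 96 and 61. With scaling between arrays they were 0, 1 and 0, and 3 with both additions, where calls over all probes were 348, 87, 107 and 189, the last from 2162. The cause was not tested. Median centring moved the median of all probes in cHF+R against cHF to 0.14 from 0.01, and Acot1 stood at 1.35 there. With R the count was 4 with slide as a block, with the replicate block and with only the compared groups, Acot2 and Acot3 probe 1 or both Acot3 probes passing in addition. Deviations of same-numbered mice had a median r of 0.027 over 40 pairs, 13 of them over 0.1. For mice of other numbers it was -0.001 over 274 pairs, 55 of them over 0.1. Nothing in the labels pairs mice by number, so the numbers were not taken as pairs. The replicate block changed no other count. Leaving out each array gave 2 to 4 probes with PC, 2 to 5 with R, 6 to 7 with both, 1 to 1 for cHF+PC+R against cHF+R, and 0 in the others. With R it was 5 without cHF replicate 7 and 4 without cHF replicate 4, cHF+R replicate 6, cHF+PC replicate 4, or cHF+PC+R replicates 2 or 5. Acot12 lost its call with PC without cHF replicates 1, 2, 3, 5, 6 or 7, cHF+R replicate 4, cHF+PC replicates 1, 2, 3, 4, 5 or 8, or cHF+PC+R replicates 1, 5 or 7. Of all called probes 65.5% were higher with R and 50.1% with both; the shares were 39.4% and 30.3% with the deposited values, 93.8% and 58.1% with median centring and, for R, 87.4% with scaling. For cHF+PC+R against cHF+R they were 46.6% in the main setting, 57.9%, 13.1% and 31.8%. Over the arrays left out 1 at a time, 2 to 4, 4 to 5 and 6 to 8 genes of peroxisomal beta-oxidation rose with PC, R and both, 0 to 3, 1 to 2 and 1 to 3 of mitochondrial beta-oxidation, and 3 to 4, 2 to 6 and 3 to 4 of the PPAR-alpha anchors. The anchors with R were 2 without cHF replicate 4 or cHF+R replicates 1, 2 or 3. Among acyl-CoA synthetases 0 to 2, 0 to 1 and 0 to 5 rose and 0 to 3, 0 to 1 and 1 to 3 fell; for CoA synthesis 0 to 0, 0 to 1 and 0 to 2 rose and 0 to 1, 0 to 0 and 0 to 2 fell; for other thioesterases 0 to 0, 0 to 0 and 0 to 1 rose and 0 to 3, 0 to 1 and 1 to 1 fell. The fit on only the compared groups gave no interaction.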
